A study of Homo sapiens with 8 samples.

Results

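The comparison described here was the addition of VTP50469 to WM1119 in MOLM-13 cells: 2 libraries treated with both compounds (the combination) were set against 2 libraries treated with WM1119 alone, across all genes. Members were therefore all genes with enough counts to be tested, which were 12401 of the 26475 gene symbols in the deposited table. MOLM-13, a human cell line from acute myeloid leukemia with a KMT2A-AF9 fusion (KMT2A-r), is labelled wild type and had been treated with DMSO vehicle, VTP50469, WM1119 (written WM119 in the labels) or VTP50469 plus WM119. Each of the 4 groups had 2 libraries of bulk RNA, 8 in all. Neither the concentration of the compounds nor the hours of exposure were given in the sources used here, and nothing there tied the 2 libraries of a group to separate cultures, so p-values measured only the spread between these samples, which may be technical. All groups came from 1 line, so the results describe that line.

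VTP50469 occupies the pocket of Menin that binds the amino end of KMT2A, and thereby takes KMT2A and its fusions off a set of promoters, of which the HOXA cluster and MEIS1 are the best known. WM1119 competes with acetyl-CoA in KAT6A, a histone H3 acetyltransferase of the MYST family that also sits at promoters of self-renewal genes. Acute myeloid leukemia cells of this kind are held at an early myeloid stage, and loss of such complexes is known to let genes of granulocytes and monocytes come up. The question of this comparison was what Menin inhibition added in cells that were already under KAT6A inhibition.

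Library totals of the 4 libraries compared ran from 18504370 to 23634468 expected counts, and 11.4% to 16.6% of the values above 0 in the 8 libraries were not whole and were rounded. Combination replicate 2 stood apart: it held counts for 12972 genes against 14208 to 14544 in the other 3 libraries, and 2829 genes lay more than 2-fold from combination replicate 1, against 433 between the WM1119 libraries. Its log2 difference from the WM1119 mean fell with transcript length across genes (Spearman -0.22, against 0.05 for combination replicate 1, over 12108 genes that share 1 library and are not independent). The WM1119 libraries were themselves split by length. Against the mean of all 8 libraries they were at -0.16 and 0.20, combination replicate 2 at -0.22, and the others at 0.06 to 0.20. Levels are given below as CPM (read counts scaled to a common library size) after TMM scaling, and differences on the log2 scale, where 1 is a 2-fold change, with the standard error (SE) of the fit. Tests were quasi-likelihood F tests of edgeR over all 4 groups, and calls were made where the adjusted p (Benjamini-Hochberg) was below 0.05. The myeloid surface marker CD33 was at 72.3 and 66.8 CPM in the WM1119 libraries and 80.4 and 101 CPM in the combination, and MPO and LYZ were expressed in all 8 libraries. Markers of other cell types were read as whole lists. Of the T and NK cell markers, 6 of 17 had 0 counts in all 4 libraries (CD3E and CD8A among them), and the list summed to 134.1 to 160.1 CPM, with 38.5% from NCAM1 and 32.0% from CD4. For B and plasma cells 4 of 15 were at 0 (MS4A1 among them) with a sum of 1.27 to 3.72 CPM, and for dendritic cells 4 of 15 with a sum of 65.0 to 82.3 CPM, 48.2% of it from CADM1. For erythroid cells 13 of 18 were at 0 (ALAS2 and HBB among them), and 96.7% of the sum of 307.2 to 610.1 CPM came from the transferrin receptor TFRC, which dividing cells of many types express. The mast cell, basophil and eosinophil list had 6 of 15 at 0 and summed to 9.23 to 12 CPM, and the epithelial and stromal list had 12 of 19 at 0 (EPCAM and CDH1 among them) and summed to 3.42 to 6.32 CPM. The megakaryocyte list had 6 of 15 at 0 (PF4 and VWF among them), and its summed level was higher in the combination, at 28.3 and 56.6 CPM against 8.56 and 8.11 CPM, with 80.1% of its counts from NFE2, a factor also found in granulocyte precursors and its 1 called gene. The other 6 of these lists held no called gene. In bulk RNA, fewer cells of a type and less RNA per cell cannot be told apart.

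Adding VTP50469 raised a number of genes of granulocytes and monocytes above the level with WM1119 alone, and lowered a smaller set that held Notch ligands, the cytokine signaling inhibitor SOCS2 and members of the HOXA cluster. By edgeR, 126 genes were called higher (1.02% of the 12401 tested) and 51 lower (0.411%), of which 109 and 47 changed over 2-fold. At an unadjusted edgeR p under 0.05, 1199 of the 12401 were higher and 871 lower, which is the background for the unadjusted counts of lists below. Both combination libraries lay above both WM1119 libraries for all 126, an order that 19.0% of all tested genes showed, and below them for all 51, an order found in 20.1% of genes. The median log2 change was 1.83 over the higher and -1.47 over the lower genes, against -0.01 over all genes. Of the 126, the difference from the WM1119 mean was larger in combination replicate 2 than in replicate 1 for 95, with a median of 1.90 against 1.51 on the log2(CPM + 0.5) scale. In CPM, 11 of the 126 and 5 of the 51 lay more than 2-fold apart between the combination libraries. Without combination replicate 2, where the lone library was assumed to vary like the other groups, 370 genes were called higher (2.91% of 12694) and 155 lower (1.22%), and these held all 126 and all 51. An offset for transcript length kept 121 and 43 of the calls. The calls depended on both WM1119 libraries, and also on the DMSO and VTP50469 libraries, which shared 1 estimate of the spread with them. Each call named below other than C3 was lost without WM1119 replicate 1 and also without WM1119 replicate 2. C3 was the 1 gene called in all 8 fits that leave out a library, and 20 higher and 3 lower genes (DLL1, CSPG4 and SOCS2) were called in 6 or more. All 177 calls were also made by DESeq2, among 703 in all, but the number of calls moved widely with the fit: 0 (C3 included) when only the combination and WM1119 were fitted (834 genes at an unadjusted p under 0.05 in edgeR), 40 with limma library weights, 65 with the replicate block, 24 to 31 without 1 of the DMSO or VTP50469 libraries, and 6915 without combination replicate 1. The limma library weights kept 39 of the 126 higher genes but only 1 of the 51 lower genes, SHOX2, so the lower set held less well in that fit. DLL1, CSPG4 and SOCS2 were not called there (limma adjusted p 0.096, 0.07 and 0.0898). Of the genes named below, CSPG4, ELANE, FLT3, JAG2, MEF2C, RNASE2, RNASE3 and SERPINB2 were chosen after their values were seen.

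**Figure D1:**
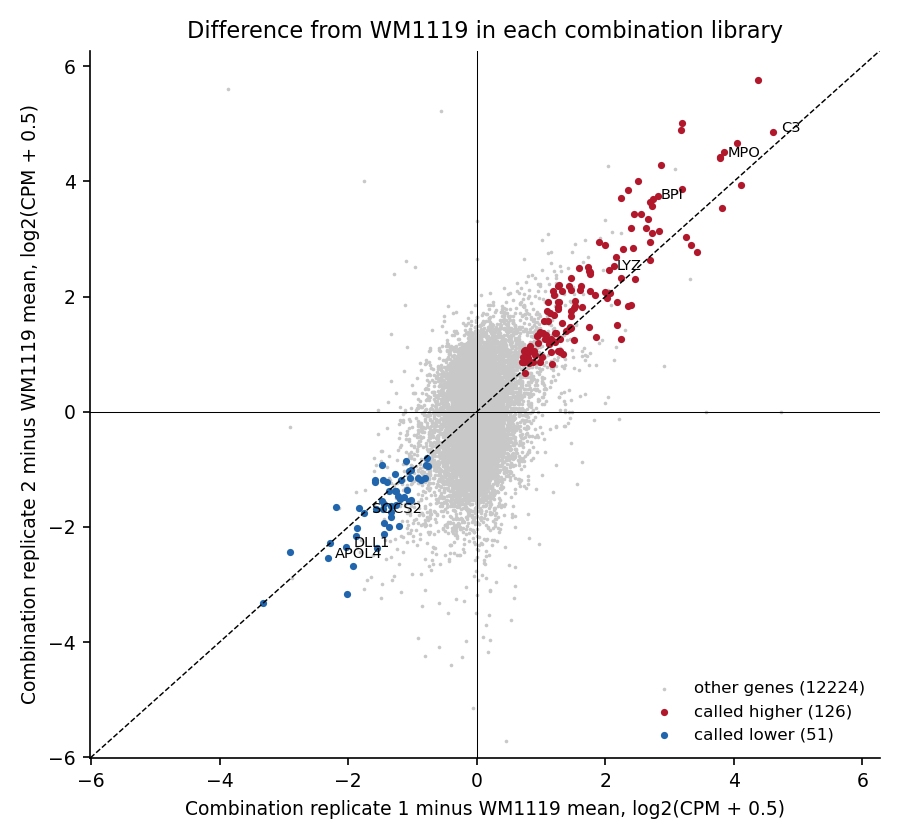
Difference of combination replicate 1 (x axis) and combination replicate 2 (y axis) from the mean of the 2 WM1119 libraries, on the log2(CPM + 0.5) scale, for 12401 genes. Red points are the 126 genes called higher, blue points the 51 called lower, grey points the others, and the dashed line marks equal differences. The called genes lie near the line, while the grey cloud is drawn out along the y axis, that of combination replicate 2. The test favors genes whose libraries within a group are alike, so the place of the called genes was in part given.

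Granule proteins of neutrophil precursors were among the genes with the clearest change. MPO, the myeloperoxidase of primary granules, was at 99.7 and 106 CPM in the WM1119 libraries and 1421 and 2214 CPM in the combination libraries. Both combination libraries stood far above both WM1119 libraries, the second being the higher, and MPO rose by log2 4.15 (SE 0.27), with an edgeR adjusted p of 0.00554. BPI, the bactericidal permeability-increasing protein, had 1 count in the 2 WM1119 libraries together and 171 counts in the combination, a ratio of 192.9 with a 95% counting interval of 34.2 to 7663.3. RNASE3, the eosinophil cationic protein, and RNASE2, the eosinophil-derived neurotoxin, are close copies of each other. RNASE3 went from 6.52 and 5.07 CPM to 18.3 and 34.8 CPM and RNASE2 from 109 and 93.8 CPM to 223 and 332 CPM, and both ribonucleases rose (log2 2.19 and 1.46, edgeR adjusted p 0.0382 and 0.0314). MS4A3, which is expressed in the common precursors of granulocytes and monocytes, rose by log2 4.23 (SE 0.38) from 6.56 and 5.44 CPM to 88.2 and 137 CPM (edgeR adjusted p 0.00757). Of the 15 tested primary granule genes, 7 rose and 0 fell, against 1.02% and 0.411% of all tested genes. Their median log2 change was 1.51 (0.97 without combination replicate 2), and 3 listed genes were not tested. At least 10 counts in both WM1119 libraries were found for 13 of the 15. BPI, which was called, was not among the 13. Members below that passed the filter largely through libraries where they were higher, so the count and median are in part set by the filter. ELANE, the neutrophil elastase, did not pass the test at 384 and 329 CPM against 708 and 1662 CPM (edgeR adjusted p 0.0854); its combination libraries were both high but lay more than 2-fold apart. Without combination replicate 2, 12 of the 15 were called higher.

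Of 32 genes of later granules and of mature neutrophils, 15 had enough counts to be tested, and 7 of them rose with both compounds. HP, haptoglobin, was at 1.79 and 0.61 CPM in the WM1119 libraries and 32.6 and 86.5 CPM in the combination. The groups did not overlap, combination replicate 2 was the higher of its pair, and HP rose by log2 5.61 (SE 0.68) (edgeR adjusted p 0.0182). FOLR3, a folate receptor of neutrophil granules, had 0 counts with WM1119 and 35 and 26 counts in the combination, at least 22.9-fold higher when the WM1119 pair together is set to a floor of 3 counts. SERPINA1, an inhibitor of neutrophil elastase, had 2 counts with WM1119 and 168 in the combination, a ratio of 94.8 (95% counting interval 25.8 to 788.9). FPR2, a formyl peptide receptor that guides neutrophils, had 4 counts with WM1119 and 96 in the combination, which is 27.1-fold (95% counting interval 10.2 to 101). CHI3L1, a chitinase-like glycoprotein, rose by log2 2.96 (SE 0.26) from 28.1 and 28.4 CPM to 178 and 262 CPM (edgeR adjusted p 0.00757). None of the 15 tested members fell. Only 6 of the 15 had at least 10 counts in both WM1119 libraries; members below that passed the filter largely through libraries where they were higher, so counts and medians over the 15 are not read as a result. The other 17 members had too few counts to be tested.

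**Figure D2:**
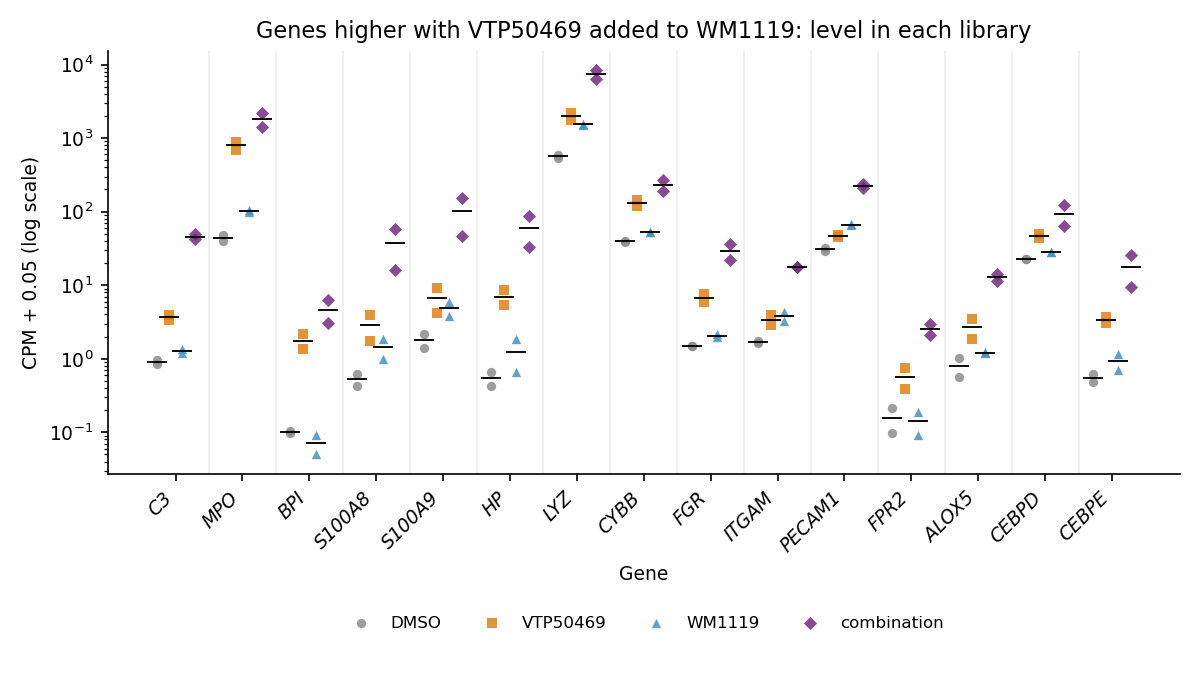
Level of 15 genes called higher in each of the 8 libraries, as CPM + 0.05 on a log axis; points are libraries, 2 per group, and the black bars are group means. The combination libraries are the highest of the 8 for every gene shown; C3 is at 41.8 and 49.7 CPM against 1.15 and 1.31 CPM with WM1119.

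C3, the central complement component and a gene of none of the lists, gave the firmest call. It was at 1.15 and 1.31 CPM in the WM1119 libraries and 41.8 and 49.7 CPM in the combination libraries. The groups were far apart with little spread inside either, and C3 rose by log2 5.21 (SE 0.21), with the lowest edgeR adjusted p of this comparison (0.000752). Some genes of monocytes and macrophages rose as well. LYZ, lysozyme, an abundant product of monocytes and granulocytes, was at 1559 and 1502 CPM and 6374 and 8431 CPM and rose by log2 2.27 (SE 0.19) (edgeR adjusted p 0.00757). MNDA, a nuclear antigen of myeloid cells, rose by log2 3.08 (SE 0.29) from 13.2 and 10.8 CPM to 77.9 and 125 CPM (edgeR adjusted p 0.00961). CSF1R, the receptor for M-CSF, went from 11 and 11.5 CPM to 28.3 and 27.8 CPM and rose by log2 1.32 (SE 0.15) (edgeR adjusted p 0.0152). S100A8 and S100A9, the subunits of calprotectin, were at 1.83 and 0.938 CPM and 5.92 and 3.75 CPM with WM1119 and at 16.2 and 58.7 CPM and 46.7 and 154 CPM in the combination. Every combination library was above every WM1119 library for both subunits, combination replicate 2 being the higher, and they rose by log2 4.74 (SE 0.76) and 4.37 (SE 0.68) with edgeR adjusted p of 0.0384 and 0.0352. CD14, a co-receptor for lipopolysaccharide, stayed low, at 0.298 and 0.188 CPM with WM1119 and 0.975 and 2.85 CPM in the combination, with a log2 change of 2.92 (SE 0.75) that was not called (edgeR adjusted p 0.132). Of 33 tested members of the monocyte and macrophage list, 8 rose and 0 fell, against 1.02% and 0.411% of all tested genes. At least 10 counts in both WM1119 libraries were found for 29 of the 33, and 14 listed members were not tested, so the filter set this count in part. The median log2 change was 1.13, and 0.81 without combination replicate 2. At an unadjusted edgeR p under 0.05, 19 of the 33 were higher and 3 lower, against 1199 and 871 of 12401 genes. The summed level of the 33 was 2604.4 and 2451.6 CPM with WM1119 and 7900.0 and 10868.4 CPM in the combination.

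Among myeloid transcription factors, CEBPE, CEBPD and PPARG were called higher, while CEBPA and SPI1 did not pass the test. A difference between the called and the uncalled factors was not tested. CEBPE, which drives the granulocyte program after the promyelocyte stage, was at 1.11 and 0.657 CPM with WM1119 and 9.46 and 26 CPM in the combination. All combination values were above all WM1119 values, the second combination library being over 2-fold the first, and CEBPE rose by log2 4.31 (SE 0.56) (edgeR adjusted p 0.0234). CEBPD, an inducible C/EBP factor of monocytes and neutrophils, rose by log2 1.72 (SE 0.29) from 28.4 and 28 CPM to 64.5 and 122 CPM (edgeR adjusted p 0.0443). PPARG, a nuclear receptor of alveolar macrophages and adipocytes, rose by log2 3.30 (SE 0.53), from 0.383 and 0.188 CPM to 2.16 and 3.66 CPM, with an edgeR adjusted p of 0.0387. Its low WM1119 level lay below that in DMSO (1.41 and 1.47 CPM) and with VTP50469 alone (1.62 and 2.68 CPM). CEBPA and SPI1 (PU.1), which set up the myeloid lineage, were at 562 and 497 CPM and 212 and 188 CPM with WM1119 and at 683 and 986 CPM and 243 and 418 CPM in the combination. Both lay above WM1119 in both libraries but were not called, at log2 0.66 (SE 0.19) and 0.72 (SE 0.24) with edgeR adjusted p of 0.168 and 0.221. IRF8, a factor of monocytes and dendritic cells, was lower in both combination libraries, 440.3 and 299.9 CPM against 725 and 778 CPM, and was not called either (log2 -1.02 (SE 0.19), edgeR adjusted p 0.0619). Of 28 tested factors 3 rose and 0 fell, against 1.02% and 0.411% of all tested genes, and the median log2 change was 0.05.

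Surface and signaling genes of mature myeloid cells rose in part. ITGAM, the CD11b chain of the Mac-1 integrin, was at 4.34 and 3.24 CPM in the WM1119 libraries and at 17.4 and 17.4 CPM in the combination libraries. The combination pair was nearly equal and above both WM1119 libraries, and ITGAM rose by log2 2.19 (SE 0.24) (edgeR adjusted p 0.0147). PECAM1 (CD31), an adhesion molecule of leukocytes and endothelium, rose by log2 1.74 (SE 0.14) from 65.9 and 66.9 CPM to 208 and 236 CPM (edgeR adjusted p 0.00748). ITGB2, the CD18 partner of ITGAM, rose by log2 0.91 (SE 0.14) (edgeR adjusted p 0.0382), and ALCAM, which the study names among its program genes, did not pass the test at 67.7 and 87.9 CPM against 133 and 79.8 CPM. Of all tested genes 1.02% were called higher and 0.411% lower. In the adhesion list 4 of 25 tested genes rose and 0 fell, with a median log2 change of 0.23. Of 24 Fc receptor and signaling adaptor genes, 4 rose and 0 fell, among them the SRC-family kinase FGR (log2 3.86 (SE 0.30), edgeR adjusted p 0.00748), which went from 2.09 and 1.92 CPM to 22.3 and 36.1 CPM. CYBB, the membrane subunit of the NADPH oxidase, rose by log2 2.13 (SE 0.20), from 53.2 and 52.5 CPM to 272 and 189.6 CPM (edgeR adjusted p 0.00943). CSF3R, the receptor for G-CSF, rose by log2 1.68 (SE 0.19) (edgeR adjusted p 0.0153).

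Some mediators of inflammation rose too. CXCL8 (interleukin 8), which attracts neutrophils, was at 1.41 and 1.5 CPM with WM1119 and 27.4 and 44.2 CPM in the combination, and rose by log2 4.62 (SE 0.49) (edgeR adjusted p 0.0147). ALOX5, the 5-lipoxygenase that makes leukotrienes, and its activating protein ALOX5AP rose together, from 1.15 and 1.17 CPM and 212 and 193 CPM to 11.4 and 14.1 CPM and 430.1 and 682 CPM (log2 3.45 (SE 0.41) and 1.46 (SE 0.23), edgeR adjusted p 0.0175 and 0.0352). TLR4, the sensor of lipopolysaccharide, rose by log2 1.87 (SE 0.31), with combination replicate 1 the higher of its pair (85.5 and 43.1 CPM against 16 and 19.3 CPM; edgeR adjusted p 0.044). The counts were 3 higher of 18 chemoattractants and their receptors, 2 of 11 lipid mediator enzymes and 2 of 28 innate sensors and cytokines. Among 29 type I interferon response genes, 1 was called higher (IFI6). Each of these lists had 0 lower, and of all tested genes 1.02% were called higher and 0.411% lower. None of 18 MHC class I genes and none of 12 MHC class II genes was called; their median log2 changes were 0.71 and 0.33, and at an unadjusted p under 0.05, 13 of the 18 and 1 of the 12 were higher. Without combination replicate 2, 5 class I genes were called, and the medians were 0.41 and 0.14. Of 46 lysosomal genes 3 rose (PSAP, prosaposin, GM2A, the GM2 activator, and ASAH1, acid ceramidase, by log2 0.96, 0.98 and 0.72) and 0 fell, but 44 of the 46 lay above 0, with a median of 0.59, and 14 were called higher and 1 lower without combination replicate 2. Across the 9 lists of myeloid cells, which overlap in part, 37 of 191 tested genes were called higher and 0 lower, against 1.02% and 0.411% of all genes. The 191 include the late granule list, where only 6 of 15 tested members had at least 10 counts in both WM1119 libraries. Such low members, also found in other lists, passed the filter largely through libraries where they were higher. The pooled count is therefore set in part by the filter and is not read as a result.

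**Figure D3:**
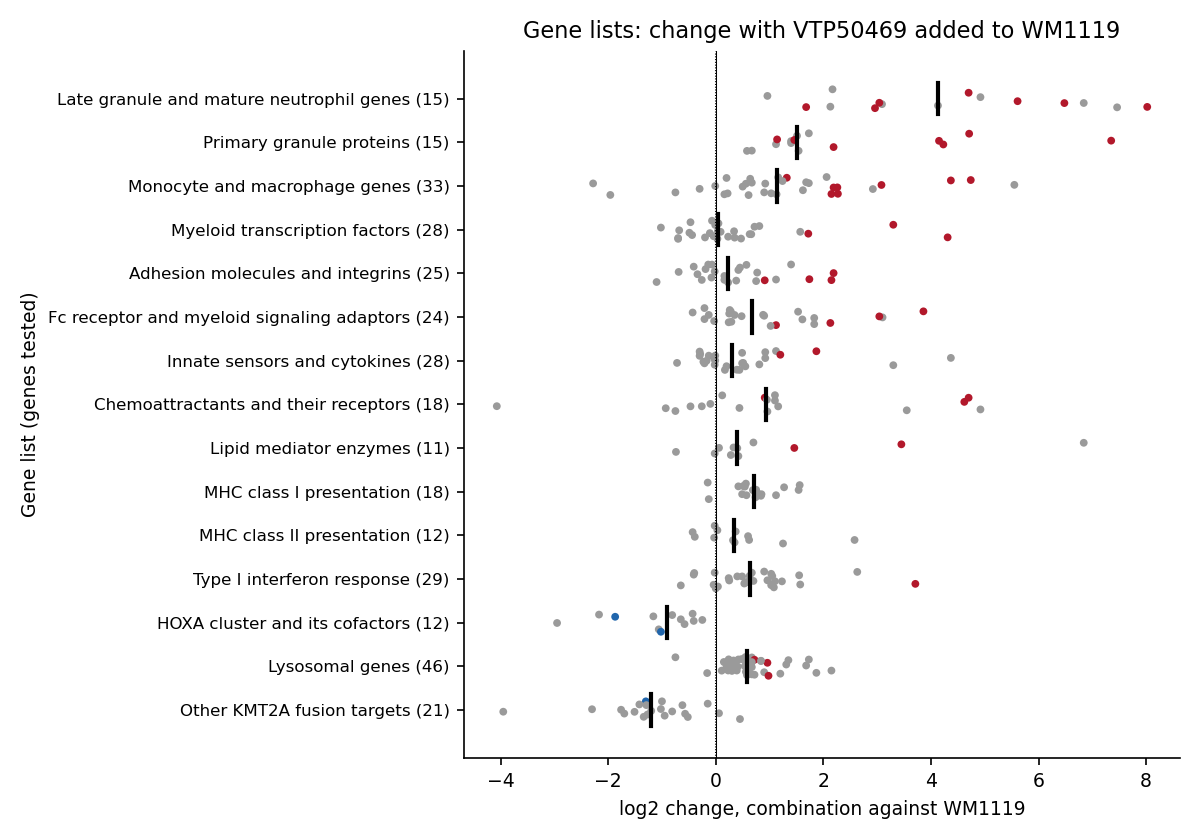
log2 change of the combination against WM1119 (x axis) for the members of 15 gene lists (y axis, number tested in parentheses); red and blue points are genes called higher and lower, grey points others, black bars list medians, and the dotted line the median of all genes. The primary granule list has a median of 1.51, and 13 of its 15 tested members had at least 10 counts in both WM1119 libraries. The late granule list shows the 15 of 32 members that passed the count filter, and its place is in part set by that filter. The HOXA cluster and other KMT2A fusion targets lie to the left, with medians of -0.91 and -1.20.

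The promoters of 4 of the called genes are shown because their genes rose together and PU.1 and C/EBP are the factors best known to bind promoters of granule and monocyte genes; motifs and genes were picked after the values were seen. The sequences are the 250 bases before the RefSeq start of each gene (GRCh38.p14), written 5′ to 3′ on the gene's strand, with capitals on matches to the PU.1 letters GAGGAAG or the C/EBP letters TTGCNNAA on either strand. S100A8 (chr1:153391189-153391438, minus strand) has a PU.1 match from base -75 to base -69, ITGAM (chr16:31259725-31259974, plus strand) has one from -127 to -121, and CEBPE (chr14:23119256-23119505, minus strand) has one from -41 to -35. MS4A3 (chr11:60056415-60056664, plus strand) has C/EBP matches from -233 to -226 and from -68 to -61.
S100A8: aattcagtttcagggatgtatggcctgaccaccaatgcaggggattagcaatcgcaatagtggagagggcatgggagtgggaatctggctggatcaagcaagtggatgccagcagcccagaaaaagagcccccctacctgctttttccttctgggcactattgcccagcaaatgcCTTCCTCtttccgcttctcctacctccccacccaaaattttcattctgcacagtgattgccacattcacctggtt
ITGAM: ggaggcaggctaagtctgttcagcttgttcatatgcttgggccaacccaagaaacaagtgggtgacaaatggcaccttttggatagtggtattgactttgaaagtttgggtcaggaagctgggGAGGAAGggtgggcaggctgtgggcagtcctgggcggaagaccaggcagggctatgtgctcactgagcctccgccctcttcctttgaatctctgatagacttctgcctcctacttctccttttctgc
CEBPE: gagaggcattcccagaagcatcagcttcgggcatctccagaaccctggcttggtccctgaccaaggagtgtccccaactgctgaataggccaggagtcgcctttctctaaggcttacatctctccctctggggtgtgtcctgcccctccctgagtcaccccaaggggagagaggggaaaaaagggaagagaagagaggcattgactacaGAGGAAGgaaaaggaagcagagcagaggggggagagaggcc
MS4A3: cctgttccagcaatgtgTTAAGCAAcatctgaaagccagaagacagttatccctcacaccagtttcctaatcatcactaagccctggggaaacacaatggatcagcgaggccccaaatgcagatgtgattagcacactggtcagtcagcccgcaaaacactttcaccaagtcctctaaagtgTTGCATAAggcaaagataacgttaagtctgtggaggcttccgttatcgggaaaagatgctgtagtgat
The table of RefSeq promoters held 88 of the 126 higher genes and 35 of the 51 lower genes. GAGGAAG was found in 22 of the 88 (25.0%) and in 4 of the 35 (11.4%), against 12% of 9790 tested genes with a promoter and 11% of all 27305 promoters. TTGCNNAA was found in 12 (13.6%) and 2 (5.71%), against 6.06% of tested genes and 9.13% of all promoters. The HOXA9-MEIS1 letters TGATTTAT were in 0 promoters of either set, against 0.235% of tested genes and 0.78% of all promoters, and the E box CACGTG was in 4 (4.55%) and 2 (5.71%), against 9.22% and 6.49%. These shares are descriptions, none of the motifs overlaps another in its letters, and binding of the factors was not measured.

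Genes that fell with VTP50469 added to WM1119 included ligands and growth factors. DLL1, a Notch ligand, was at 34.5 and 32.5 CPM in the WM1119 libraries and 7.76 and 6.2 CPM in the combination libraries. Both pairs were tight and far from each other, and DLL1 fell by 2.26 on the log2 scale (SE 0.18, edgeR adjusted p 0.00748). JAG2, another Notch ligand, went from 20.3 and 19.6 CPM to 7.63 and 5.64 CPM and fell by 1.58 on the log2 scale (SE 0.18, edgeR adjusted p 0.0159). SOCS2, an inhibitor of cytokine receptor signaling and a gene of the LSC17 stem cell score, was at 38.2 and 35.2 CPM and 10.6 and 10.5 CPM, with no overlap, and fell (log2 -1.80, SE 0.15, edgeR adjusted p 0.00748). PDGFA, a platelet-derived growth factor chain, went from 11.3 and 9.0 CPM to 1.82 and 2.85 CPM, and ENPP2, the autotaxin enzyme that makes lysophosphatidic acid, from 22.9 and 20.8 CPM to 5.0 and 1.98 CPM (log2 -2.14 and -2.61, edgeR adjusted p 0.0235 and 0.0314). CSPG4, the NG2 proteoglycan, a surface marker of KMT2A-r leukemia, fell by 2.04 on the log2 scale from 94.2 and 108 CPM to 27 and 22.1 CPM (edgeR adjusted p 0.00757). The homeobox gene SHOX2 was at 239.7 and 244 CPM and 63.4 and 37.5 CPM and fell by 2.26 on the log2 scale (SE 0.25, edgeR adjusted p 0.0147). CCND1, cyclin D1 of the G1 phase, fell by 1.24 on the log2 scale, from 16.1 and 13.9 CPM to 5.94 and 6.82 CPM (edgeR adjusted p 0.0224), and CBS, which makes cystathionine, fell by 0.80 on the log2 scale (edgeR adjusted p 0.0453).

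3 of the genes with the largest drops were close to silent in the combination. CSRP3, a muscle LIM protein, had 87 counts in the WM1119 libraries and 0 in the combination, at least 25.7-fold lower when the combination pair together is set to 3 counts, the same floor as above. APOL4, an apolipoprotein L gene, went from 108 counts to 2, which is 47.9-fold lower (95% counting interval 12.9 to 400.3), and the RNA gene LOC101927497 from 166 counts to 5, which is 29.4-fold lower (12.4 to 91.8). These intervals and floors cover counting error only. ISY1-RAB43 and DPH3P1, which share most of their exon bases with RAB43 and TCFL5, were called lower too, and the counting may have split reads between such partners.

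Of the HOXA cluster and its partners, 2 genes were called lower. HOXA3 was at 4.09 and 4.36 CPM with WM1119 and 1.23 and 1.05 CPM in the combination and fell by 1.87 on the log2 scale (SE 0.26, edgeR adjusted p 0.0272). HOXA11 fell by 1.02 on the log2 scale, from 19.8 and 17.3 CPM to 8.4 and 9.98 CPM (edgeR adjusted p 0.0388), and shares 27.2% of its exon bases with the antisense gene HOXA11-AS, whose reads could not be told apart without a known strand setting. HOXA9, the homeobox factor most tied to KMT2A-r leukemia, was at 76 and 64.8 CPM and 48.6 and 45.8 CPM, with no overlap between the groups, and was not called (log2 -0.58 (SE 0.14), edgeR adjusted p 0.11). MEIS1, the HOXA9 cofactor, went from 32 and 30.3 CPM to 10.8 and 2.85 CPM; both combination libraries were lower but lay more than 3-fold apart, and it was not called with both of them (log2 -2.17 (SE 0.51), edgeR adjusted p 0.11). Without combination replicate 2, MEIS1 was called, with an edgeR adjusted p of 0.00201. PBX3, a partner of both, was at 88.2 and 89.7 CPM and 48.5 and 30.7 CPM (log2 -1.16 (SE 0.22), edgeR adjusted p 0.0612). Of the 12 tested genes of this list 0 rose and 2 fell, against 1.02% and 0.411% of all tested genes. Both combination libraries lay below both WM1119 libraries for 11 of the 12, an order found in 20.1% of all tested genes. At an unadjusted edgeR p under 0.05, 10 of the 12 were lower, against 871 of 12401 genes. The median log2 change of the 12 was -0.91, and -1.05 without combination replicate 2. Their summed level was 305.2 and 292.7 CPM with WM1119 and 173.7 and 151.4 CPM in the combination.

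Other genes bound by KMT2A fusions showed a like order. RUNX2, a RUNX family factor, fell by 1.30 on the log2 scale, from 51.5 and 60.5 CPM to 26.6 and 18.7 CPM (SE 0.20, edgeR adjusted p 0.0351), and was the 1 member called of 21 tested. CDK6, a G1 kinase, was at 289 and 438 CPM and 147 and 76.7 CPM, MEF2C, a MADS-box factor, at 459.6 and 569 CPM and 221 and 81.8 CPM, and FLT3, a cytokine receptor, at 219 and 234 CPM and 144 and 82.2 CPM; none was called (edgeR adjusted p 0.073, 0.112 and 0.127). For each of the 3, combination replicate 2 was the lowest library. The median log2 change of the 21 was -1.20, and -0.73 without combination replicate 2. Both combination libraries lay below both WM1119 libraries for 17 of the 21, an order found in 20.1% of all tested genes.

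**Figure D4:**
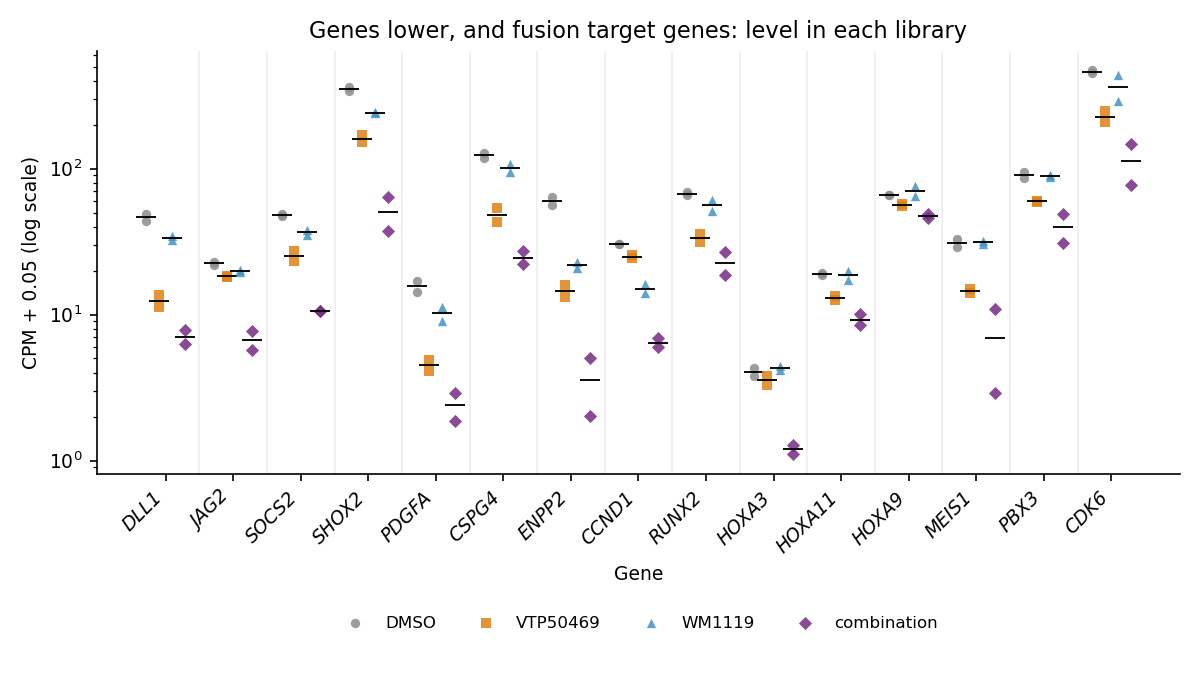
Level of 15 genes in each of the 8 libraries, as CPM + 0.05 on a log axis; the first 11, DLL1 to HOXA11, were called lower, and HOXA9, MEIS1, PBX3 and CDK6 were not. Points are libraries, 2 per group, and black bars group means; MEIS1 is at 32 and 30.3 CPM with WM1119 and 10.8 and 2.85 CPM in the combination.

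The genes of the targeted complexes themselves were not called. MEN1, which encodes Menin, was at 82.9 and 80.5 CPM with WM1119 and 75.1 and 62.5 CPM in the combination (log2 -0.25 (SE 0.14), edgeR adjusted p 0.383). KMT2A was at 26.6 and 51.5 CPM and 28.6 and 9.85 CPM, and KAT6A at 105 and 186 CPM and 126 and 38 CPM; for both genes the WM1119 libraries themselves differed nearly 2-fold and one of them overlapped with combination replicate 1 (log2 -1.01 (SE 0.50) and -0.82 (SE 0.53), edgeR adjusted p 0.346 and 0.427). DOT1L, the H3K79 methyltransferase, was at 150.4 and 184 CPM and 146 and 142 CPM (log2 -0.21 (SE 0.14)). No gene was called among 29 members of the Menin and KMT2A complexes, 18 of the KAT6A and MYST complexes, and 35 Polycomb subunits (median log2 -0.20, -0.24 and -0.15; at an unadjusted p under 0.05, 1, 0 and 1 were higher and 1, 0 and 5 lower). Without combination replicate 2 these medians were -0.05, -0.05 and -0.08.

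Growth and metabolism lists gave few calls. No gene was called among 43 DNA replication genes (0 higher and 4 lower at an unadjusted p under 0.05), 39 of the G2 and M phase (1 and 0), 41 of MYC and nucleolar biogenesis (2 and 9), 24 p53 targets (2 and 5), 14 of the BCL2 family (0 and 1) and 27 of cholesterol synthesis (2 and 2). Median log2 changes of these 6 lists lay between -0.11 and 0.12. Without combination replicate 2 they lay between -0.25, that of MYC and nucleolar biogenesis, and 0.05. In the MYC and nucleolar list 17 of 41 genes lay below both WM1119 libraries in both combination libraries, and 2 above. These orders were found in 20.1% and 19.0% of all tested genes. Of 30 ATF4 targets 4 lay above 0 and 1 fell, CBS, with a median of -0.31, and 10 were lower at an unadjusted p under 0.05. CCND1 was the 1 call among 15 D cyclins, CDKs and CDK inhibitors and among 26 MAPK feedback and immediate early genes. In the STAT5 list of 22 genes, 2 receptors rose (CSF3R and CSF1R) and SOCS2 fell, and in LSC17 SOCS2 was the 1 call of 9. HK3, the myeloid hexokinase, was the 1 gene called of 28 in glycolysis and the pentose phosphate path, rising from 0.128 and 0.328 CPM to 3.31 and 6.14 CPM (log2 4.35 (SE 0.66), edgeR adjusted p 0.034). The 78 cytoplasmic ribosomal protein genes and the 76 oxidative phosphorylation genes had 0 calls and a median log2 change of 0.35 each, which turned to -0.18 and -0.10 without combination replicate 2. The ribosomal protein genes summed to 114322.6 and 84574.8 CPM with WM1119 and to 88684.6 and 172015.9 CPM in the combination, so the pairs overlapped.

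Only 1 of the 19 genes that VTP50469 called higher against DMSO (0.153% of genes; 2 were called lower, 0.0161%) was not called higher on the WM1119 background. That gene was SERPINB2, a protease inhibitor of monocytes, at 0 and 0.0474 CPM in DMSO, 2.89 and 4.26 CPM with VTP50469, 0.128 and 0.188 CPM with WM1119 and 2.04 and 1.05 CPM in the combination (log2 3.27 (SE 0.63) on WM1119, edgeR adjusted p 0.0703). The 2 contrasts share no library, but both were tested with the spread estimated over all 8 libraries, so their calls are not independent. The number called with VTP50469 alone was itself unstable: 715 genes were higher when only DMSO and VTP50469 were fitted and 653 with limma library weights, 0 in edgeR without any 1 of the DMSO, VTP50469 or WM1119 libraries (369 to 643 genes at an unadjusted p under 0.05), and 252 and 257 without a combination library. Conversely, 124 of the 126 higher genes lay above 0 and 50 of the 51 lower genes below 0 with VTP50469 alone, with median log2 changes of 1.30 and -0.70. The change was larger on WM1119 for 112 of the 126 and 50 of the 51, values that the choice of these genes by the larger contrast pushes in that direction. Over all 12401 genes the 2 sets of log2 changes correlated at 0.52 (Pearson) and 0.54 (Spearman), across genes that are not independent replicates. MPO went from 48.6 and 40.0 CPM in DMSO to 689 and 897 CPM with VTP50469, a log2 change of 4.16, against 4.15 on WM1119. C3 went from 0.92 and 0.806 CPM to 3.33 and 3.87 CPM, a log2 change of 2.06 against 5.21. ITGAX, the CD11c integrin chain, was at 1.24 and 1.09 CPM in DMSO and 1.18 and 1.01 CPM with VTP50469, overlapping. It was at 2.17 and 2.02 CPM with WM1119 and 7.46 and 11.2 CPM in the combination (log2 -0.09 against 2.15). The difference between both changes of ITGAX, 2.24 (SE 0.43), did not pass the interaction test (edgeR adjusted p 0.938). ITGAX is among the 126 called on WM1119, a choice that favors a larger change there.

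The test of the difference between both changes, the interaction of VTP50469 and WM1119, gave 0 calls in edgeR. The unadjusted p was under 0.05 for 273 of the 12401 genes tested, DESeq2 called 5, and the smallest edgeR adjusted p was 0.231, that of C3 (difference 3.15, SE 0.30). Of the 126 higher genes, 33 had an unadjusted p under 0.05 for the difference, 31 of them with the larger rise on WM1119, and of the 51 lower genes 30 had. These genes were chosen by their change on WM1119, which is itself part of the difference. Their counts and directions were thus given in part and are not read as a result. PECAM1 had a difference of 1.15 (SE 0.19, edgeR adjusted p 0.938), and JAG2, at 21.9 and 22.8 CPM in DMSO and 18.1 and 18.4 CPM with VTP50469, one of -1.29 (SE 0.25, edgeR adjusted p 0.938). MPO had a difference of -0.02 (SE 0.34, edgeR adjusted p 0.993), with the change of each background given above.

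**Figure D5:**
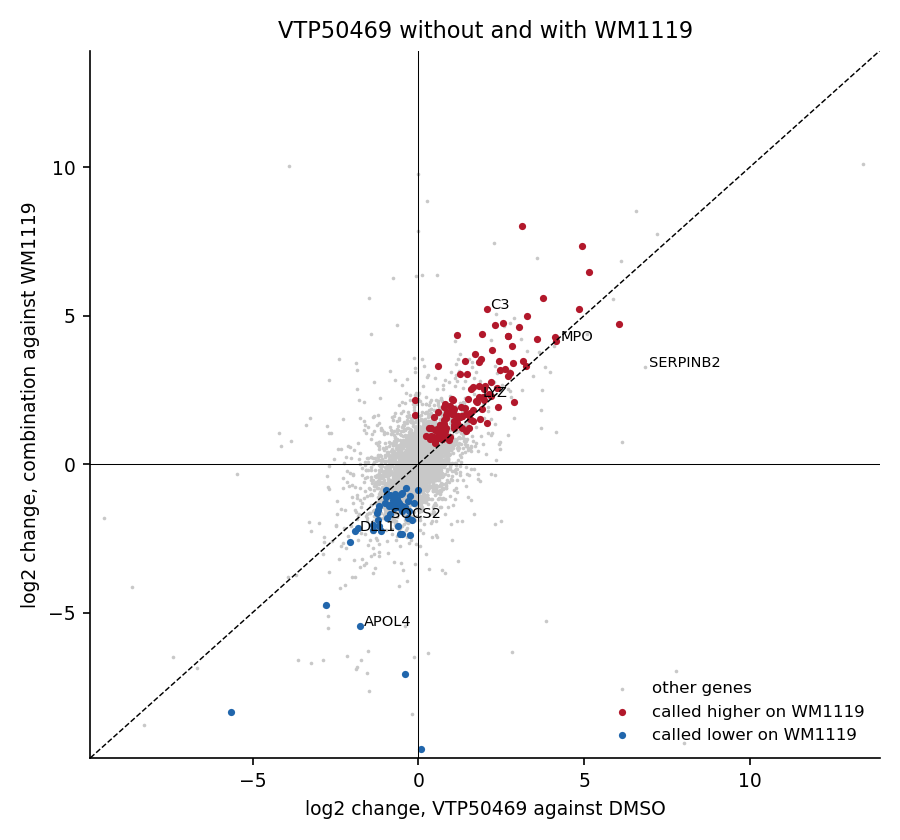
log2 change with VTP50469 against DMSO (x axis) and of the combination against WM1119 (y axis) for 12401 genes; red and blue points are the genes called higher and lower on WM1119, and the dashed line marks equal changes. Of the 126 red points 112 lie above the line, a place that their choice by the y axis contrast favors. MPO lies on the line at 4.16 and 4.15, and SERPINB2 lies below it.

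Among all 8 libraries the combination was mostly the extreme: for 120 of the 126 higher genes both combination libraries were above all 6 other libraries, an order that 13.2% of all tested genes showed, and for 50 of the 51 lower genes they were below all 6, as in 13.2% of all tested genes. These genes had been called against WM1119, so part of that order was given. The starting level of the higher genes was low, with a median of 10.5 CPM over WM1119 libraries, against 20.4 CPM for the lower genes and 28.4 CPM for all tested genes. Median transcript length was 1155 bases for the higher, 1521 bases for the lower and 1175 bases for all tested genes.

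The 3 expression programs counted here as lists are some of those that the study derived from its perturbation screens and not from these libraries. Over all tested genes, 1.02% were called higher and 0.411% lower. The Myeloid Program, P-15, had 330 tested members, of which 8 rose and 1 fell (RUNX2). Its median log2 change was -0.02, near the -0.01 of all genes. At an unadjusted edgeR p under 0.05, 52 of the 330 were higher and 9 lower, against 1199 and 871 of the 12401 tested genes. TNFSF13B, a B cell survival factor made by myeloid cells, rose by log2 1.20 (SE 0.15), from 20.2 and 21.9 CPM to 52.6 and 44.1 CPM, and ST3GAL6, a sialyltransferase, by log2 1.63 (SE 0.21), from 8.39 and 8.91 CPM to 21.6 and 31.9 CPM (edgeR adjusted p 0.0225 and 0.0237). Without combination replicate 2 the median log2 change of P-15 was 0.21, against 0.0 over all genes. At that unadjusted p, 24 members of P-14 were higher and 1 lower, and 43 of P-1 were higher and 4 lower. P-14 had 68 tested members with 5 called higher and 0 lower and a median of 0.25. P-1 had 223 with 8 called higher and 0 lower and a median of 0.09. Without combination replicate 2 these medians were 0.44 and 0.13. In P-1, ANXA1, which encodes the anti-inflammatory annexin A1, rose by log2 2.59 (SE 0.22), from 28.6 and 25.6 CPM to 133 and 193 CPM (edgeR adjusted p 0.00757).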

How the data were processed

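Bulk RNA of 8 MOLM-13 libraries was sequenced, and 4 of them, combination and WM1119, were compared here. Per the labels, the authors mapped reads to hg38 with STAR 2.5.1b and deposited expected counts (estimated counts per gene symbol, not normalized). The annotation, the counting tool and whether it used strand were not given in the sources used here, and the article and the labels name different media and kits. Without a known strand setting, reads of overlapping and antisense genes could not be told apart.

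Expected counts were rounded and fitted with edgeR 4.0.16 in R 4.3.3 (TMM, filterByExpr, quasi-likelihood F test, 4 groups, adjusted over 12401 genes by Benjamini-Hochberg). Residual and prior degrees of freedom were 4 and 2.88, and the common dispersion was 0.0457. The 4 groups shared 1 estimate of the spread. The steps were tested on simulated data drawn with the same spread in all groups. Such data cannot show how the calls hold where the combination pair lies wider apart than the others. The floor was 3 counts over the 2 libraries of a group. Totals of 18092906 to 23634468 counts per library set the precision of low genes; intervals are 95% and cover counting error only. Transcript lengths came from GENCODE by symbol (97.6% of tested genes) and promoters from RefSeq.

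Alternatives were DESeq2 1.42.0, limma 3.58.1 with library weights, scaling by RLE or by library size only, testing unfiltered genes or those with 10 or more counts in each library, robust dispersions, fitting just the compared groups, a replicate block, a transcript length offset (loess span 0.4), a log2 threshold of 1, and leaving out each library. The rule for named genes took those the study names, the 12 highest and 12 lowest called genes whose higher group had 1 CPM or more and whose groups do not overlap, leaving out overlapping genes, and the 4 genes of lowest p in each of 39 lists and 3 programs. Members and lists were chosen with earlier results of these data known.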

Additional observations from a re-analysis of the deposited data

Results flagged for a closer look

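For 4 named genes every library moved one way with VTP50469 added to DMSO and the other way with VTP50469 added to WM1119. None of them was called in either contrast, and the test of the difference between both changes did not pass for any (edgeR adjusted p 0.938 for each). MEN1, the gene of Menin, was at 79.6 and 81 CPM in DMSO and 89.5 and 82.3 CPM with VTP50469, and at 82.9 and 80.5 CPM with WM1119 and 75.1 and 62.5 CPM in the combination, a log2 change of 0.10 without and -0.25 with WM1119 (unadjusted edgeR p of the difference 0.122, adjusted p 0.938). ELL3, an elongation factor, changed by -0.53 without and 1.13 with WM1119, and combination replicate 2 carried most of it (2.16 and 6.63 CPM against 2.09 and 1.88 CPM). CD79A, a B cell receptor chain, changed by -0.46 and 1.33, with 0.975 and 2.67 CPM in the combination against 0.809 and 0.61 CPM. ACTA2, smooth muscle actin, changed by -0.42 and 1.33, with 1.31 and 1.36 CPM against 0.809 and 0.234 CPM.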

How the results depend on the processing

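The 177 calls of the combination against WM1119 were 703 by DESeq2, 65 with the replicate block, 40 with limma library weights (39 higher and 1 lower) and 0 when only the groups compared were fitted (834 genes at an unadjusted p under 0.05). Leaving out 1 library gave 1 to 6915 calls: 1 call each time a WM1119 library was left out, 24 and 28 for the DMSO libraries, 31 for either VTP50469 library, and 6915 and 525 for replicates 1 and 2 of the combination. The other alternatives gave 147 to 246 calls. The replicate numbers share only a number: deviations of the WM1119 and combination libraries correlated at -0.44 and those of other groups at -0.20 to 0.17, and 49 of the 126 and 15 of the 51 calls were kept with the block. For VTP50469 against DMSO, 21 calls became 204 by DESeq2, 1165 with limma weights, 1332 with only the groups compared, 50 with no count filter, and 0 to 419 without 1 library; it was 0 in edgeR for each of the 6 libraries of the other groups (369 to 643 genes at an unadjusted p under 0.05), and 416 and 419 for those of the combination. For the interaction, 0 calls became 5 by DESeq2 and 0 to 3938 without 1 library, 3938 being without combination replicate 1. Weights per library were 0.170 and 0.158 for the combination against 0.975 and 0.992 for WM1119. Among 178 named genes, 2476 values kept direction and side of the threshold, 518 lost and 164 gained a call, and 9 turned: RPL13 (-0.06), RPL18 (-0.03), ATP5D (-0.10) and EPOR (-0.06) without combination replicate 2, EPOR with library size only (-0.00), and TUBB1 without WM1119 replicate 2 (0.13), without combination replicate 2 (0.13), with limma weights (0.01) and with the length offset (0.18). Over the fits without 1 library these 5 genes ran from -0.06 to 1.17, -0.03 to 1.02, -0.10 to 1.32, -0.06 to 0.27 and -0.17 to 0.13. Library size only moved the median of all genes from -0.01 to -0.10. The cause of these shifts was not tested beyond the libraries each fit leaves out, and 2 libraries per group limit what could be called.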

Other observations

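Of the called genes, 83 of the 126 higher and 45 of the 51 lower belonged to none of the lists, and those given here were chosen after their values were seen. CES1, a carboxylesterase of monocytes, was at 242 and 206 CPM with WM1119 and 541 and 1032 CPM in the combination (log2 1.81 (SE 0.30), edgeR adjusted p 0.0428). SLCO4C1, an organic anion transporter, was at 2.13 and 2.11 CPM and 25.9 and 19 CPM, and the groups lay far apart (log2 3.40 (SE 0.22), edgeR adjusted p 0.00554). SESN3, a stress-induced sestrin that restrains mTORC1, was at 2.73 and 4.97 CPM and 26.9 and 25.5 CPM (log2 2.77 (SE 0.30), edgeR adjusted p 0.0147). BTG1, an antiproliferative factor, was at 49.2 and 46.4 CPM and 84.2 and 86 CPM, the combination pair being nearly equal (log2 0.83 (SE 0.12), edgeR adjusted p 0.0327). SLPI, an inhibitor of neutrophil elastase, was at 20.6 and 15 CPM and 103 and 291 CPM (log2 3.47 (SE 0.51), edgeR adjusted p 0.0314).

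Of the 45 lower genes outside the lists, 5 are given here. EFNA5, an ephrin ligand, was at 16.6 and 14 CPM with WM1119 and 3.94 and 4.46 CPM in the combination and fell by 1.87 on the log2 scale (edgeR adjusted p 0.01). WNT10B, a Wnt ligand, was at 23.7 and 21.9 CPM and 9.63 and 7.69 CPM and fell by 1.39 on the log2 scale (edgeR adjusted p 0.0182). GAL, the galanin neuropeptide, fell by 1.43 on the log2 scale, from 37.5 and 33.8 CPM to 11.5 and 15 CPM, and NCS1, a neuronal calcium sensor, by 1.40 on that scale, from 57.6 and 51.4 CPM to 17.7 and 23.6 CPM (edgeR adjusted p 0.0167 and 0.0225). PHF10, a subunit of the PBAF chromatin remodeler, was at 157 and 141 CPM and 71.4 and 73.1 CPM and fell by 1.04 on the log2 scale (edgeR adjusted p 0.0181). For all 5 both combination libraries were below both WM1119 libraries.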
